A study of Mus musculus with 22 samples.

Results

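Total RNA of the whole brain, reduced in ribosomal RNA, was measured on an exon array in 10 C57BL/6J (B6) and 12 DBA/2J (D2) mice, with 1 mouse per array. Both are inbred strains, and all 22 animals were untreated (naive) adult males. The results below concern the bright probesets to which the platform annotation gives no gene symbol. They were chosen by their measured level, a mean log2 value of at least 5 over all 22 arrays, together with the missing symbol. The rule took 43334 probesets, which is 3.64% of the 1190406 probesets with values and 4.96% of the 874312 without a symbol. The 118090 probesets that carry 1 or several symbols and reach the same mean served for comparison. The level of the members is therefore a matter of choice and is given as a description, whereas the difference between the strains played no part in the rule.

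An exon array carries short probes along known and predicted exons, and each probeset sums up the probes of 1 stretch of sequence. Besides exons of well-described genes, such designs hold probesets from expressed sequence tags and from gene predictions, so a probeset without a symbol can lie in a non-coding RNA, in an intron, in an unlisted exon, in a repeated sequence or in no transcript at all. A probe that matches several places in the genome collects the signal of all of them. The probes follow the reference sequence, which is that of B6, and a D2 variant under a probe can alter its D2 signal while the amount of transcript stays the same. The positions and sequences of the probesets were not used here, so no sequence is printed and which of these cases applies to a given member is not known. The probeset numbers carry no hint either: of 75841 pairs of consecutive numbers in which both probesets had a symbol, 7 pairs had the same one.

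The tissue label was checked on gene values, each the median over the probesets of a gene. The 5 pan-neuronal markers lay between 7.62 and 10.1 (log2) in B6, and the 4 measured of 5 myelin markers between 6.92 and 8.41. Skeletal muscle markers, as other tissue, lay between 2.34 and 4.23, and the 2 liver markers between 2.55 and 4.12. The 5 astrocyte markers ranged from 3.73 to 10.6 and the 5 microglia markers from 2.54 to 6.21. Single brain markers were thus as low as those of other tissue. Single markers of most lists were called between the strains (limma adjusted p under 0.05). These were 1 of 5 pan-neuronal, 1 of 4 myelin, 1 of 5 microglia, 1 of 2 endothelial and 1 of 2 liver markers. Of 5 astrocyte markers 3 were called, Gfap (-0.80) and Aldoc (-0.25) lower and Gja1 (0.28) higher in D2. In 2 further lists the sum over the markers did not overlap between the strains. The summed log2 level of the 2 measured of 3 red blood cell genes ranged from 13.2 to 15.3 in B6 and from 7.79 to 11.46 in D2, mostly through the globin gene Hbb-b1 (-4.12, against -0.90 for Alas2, the heme synthesis enzyme of red cells). That of 5 choroid plexus and ependyma genes ranged from 28.4 to 30.0 in B6 and from 25.8 to 28.3 in D2. In whole tissue, fewer cells of a type and less RNA per cell cannot be told apart. Neither can be told apart here from a D2 variant under the probes of a marker, since probe sequences were not used. The part of these cell types in the strain differences given below was not tested.

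Most members lay close to the level that chose them. Their mean levels had a lower quartile of 5.39, a median of 5.95 and an upper quartile of 6.99, and 5509 members reached 8, 1158 reached 10 and 31 reached 12. Just inside the limit lay probesets 4928522, 5339766 and 5106785, at means of 5.00003, 5.00003 and 5.00009. Just outside it lay 5529737, 4334719 and 5209925, at means of 4.99997, 4.99993 and 4.99992.

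The measured values of the brightest members were nearly constant. Probeset 5378897 had the highest mean, 12.6, with 12.62, 12.66 and 12.72 as the lowest, median and highest of the B6 mice and 12.31, 12.65 and 12.71 for D2. The 10 brightest had means from 12.27 to 12.64 and within-strain SDs (pooled over both strains) from 0.049 to 0.12. None of the 10 was called different between the strains (limma adjusted p from 0.66 to 0.99). Probesets 5378897, 4617651 and 4878522 had nearly the same mean level (12.64, 12.62 and 12.62), and 2 of their 3 pairs deviated from the strain means with a correlation above 0.9 over the 22 arrays. A single mouse carried this, D2 replicate 18 (12.31, 12.07 and 12.22), and without it the 3 pairs were at 0.24, 0.49 and -0.095. Of the 321 members at 11 or above, 0 were called by limma and 13 had an unadjusted p under 0.05.

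Among the members, called differences were more often higher than lower in D2. Of the 43334 members, 3325 (7.67%) were called between the strains at an adjusted p under 0.05 in a limma fit over all 595203 probesets kept, 2014 higher and 1311 lower in D2. Over the probesets tested as a whole, 3.91% of probesets were called, 1.67% higher and 2.24% lower. Symbol-bearing probesets, weighted so that their levels were spread like those of the members, were called at 4.10%, 1.28% higher and 2.82% lower in D2. Of the member calls, 39.4% were lower in D2 (exact binomial 95% interval 37.8% to 41.1%, counting error only, and members that share a transcript are not independent). Of the calls among symbol-bearing probesets of the same levels, 68.7% were lower. The median difference over all members, called or not, was 0.093 (log2, D2 minus B6), against -0.056 for the symbol-bearing probesets of the same levels and 0.014 for all probesets tested. The difference between the members and the other probesets was not tested, and these shares are a description.

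**Figure D1:**
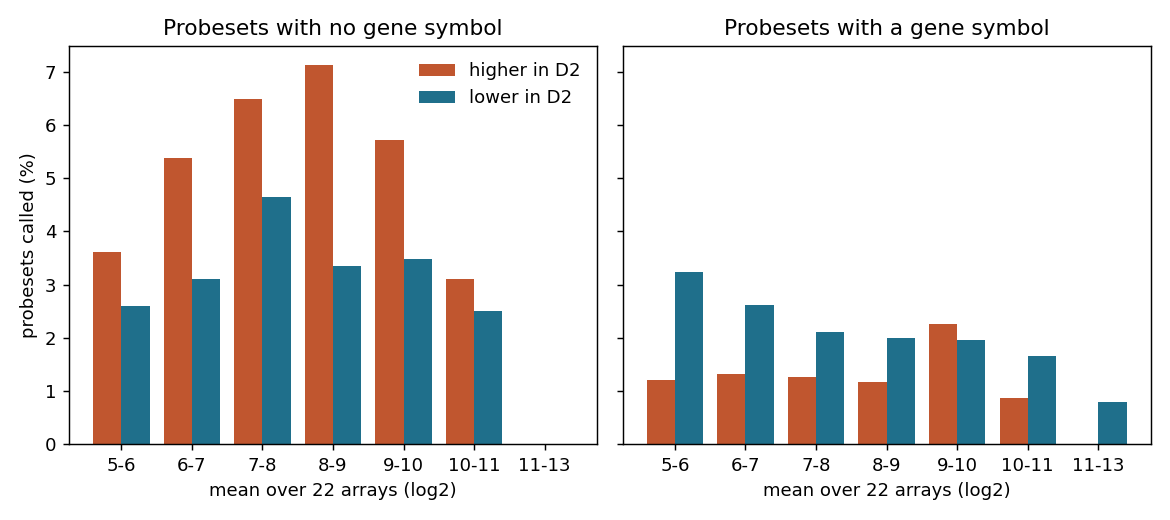
Share of probesets called between the strains (%, limma adjusted p under 0.05), by mean log2 level over the 22 arrays, for bright probesets with no gene symbol (left) and with a gene symbol (right). Among those without a symbol the calls higher in D2 outnumber the lower ones in every class below 11. With a symbol the lower ones outnumber the higher in all classes but that from 9 to 10, in the class from 11 upwards through 1 call.

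The plot of called shares by level shows a higher share of calls among the members in each class below 11, but not from 11 upwards, where 0 of 321 members and 0.8% of symbol-bearing probesets were called. From 5 to 6, 6.22% of the 22433 members were called, against 4.46% of the symbol-bearing probesets. From 7 to 8, 11.1% of 5277 members were called, against 3.37%. From 8 to 9, 7.13% of members were higher and 3.36% lower in D2, against 1.17% and 2.00% of symbol-bearing probesets. From 10 to 11 the shares fell to 5.62% and 2.53%. With symbol-bearing probesets matched by their B6 level, 52.0% of their calls were lower, and matched by their D2 level 72.4% were. With the median of each array as a covariate, 1843 members were called (4.25%, 35.8% of them lower), and 1.75% of the symbol-bearing probesets of the same levels, of which 35.4% were lower. Calls higher in D2 then outnumbered lower ones in both kinds of probeset. The array median itself differed between the strains, as given below, so this covariate also takes up part of any strain difference. On the 4 arrays with file letter B alone (2 per strain), 61 members were called, and more were lower (47) than higher (14). The median difference over all members did not turn there. It was 0.12, against -0.049 for the symbol-bearing probesets of the same levels.

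Called differences of small size were mostly higher in D2. Those of 2 or more were mostly lower, as they were over all probesets tested. The called rises had quartiles of 0.51, 0.66 and 0.96 and the called falls of 0.57, 0.81 and 1.28 (log2). Of the members, 466 were called higher by at least 1 (1.08%) and 490 lower by at least 1 (1.13%), where 0.485% and 0.827% of all probesets tested were. Over all probesets tested, 659 were called higher by at least 2 (0.111%) and 1296 lower (0.218%), and at 4 or more 87 and 230. Among the members the counts were 111 higher and 177 lower at 2 or more, and 14 higher and 33 lower at 4 or more. Most of these members were carried by 1 strain. With both strain means at 5 or above, 26 members were higher (0.0654%) and 70 lower (0.176%) by 2 or more. By 4 or more, 0 were higher and 4 lower. Large differences of other probesets were not counted under this limit. Symbol-bearing probesets of the same levels were called higher by at least 2 at 0.0725% and lower at 0.0867%, against 0.256% and 0.408% of the members. The plot of the distribution shows members outside those probesets on both flanks.

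**Figure D2:**
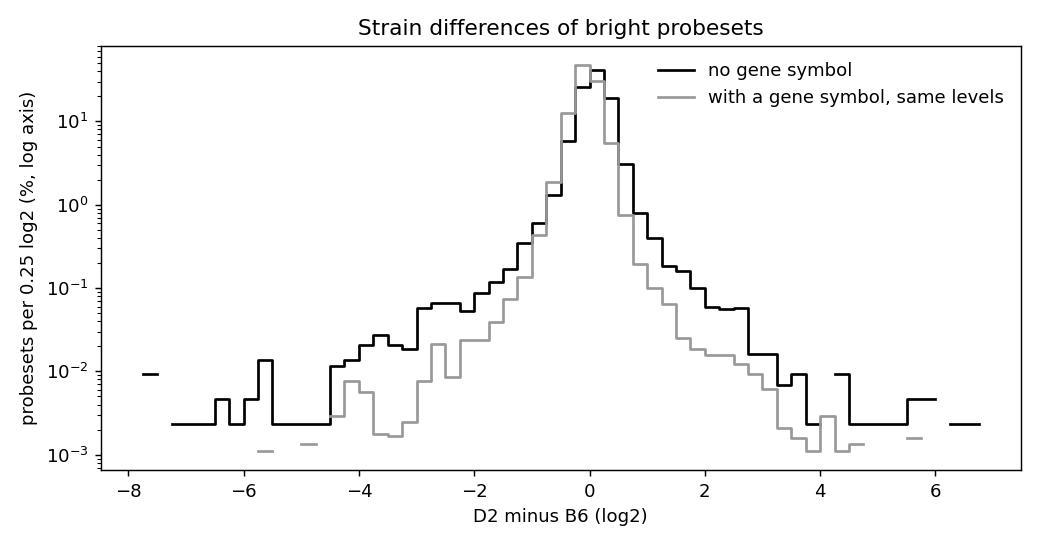
Distribution of the strain difference (D2 minus B6, log2, classes of 0.25) over the 43334 members and over symbol-bearing probesets weighted to the same levels, in percent of probesets on a log axis. The centre of the members lies to the right of that of the other probesets, and both flanks of the members are broader.

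The values of the 2 strains did not overlap for 1085 called members (2.50%), 568 higher and 517 lower in D2, where 0.769% of all probesets tested were called without overlap. Of symbol-bearing probesets of the same levels 0.832% were. The rule allows part of such differences, since a mean of 5 can be carried by 1 strain. With both strain means at 5 or above, 39761 members remained, of which 2561 were called (6.44%). Of symbol-bearing probesets of the same levels under this limit, 3.20% were called. Of the members left, 748 (1.88%) were called without overlap, and this share was not taken for other probesets under the limit.

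Single mice showed the shift of the members as well, with overlap between the strains. The median deviation of the members from their own means was -0.092 in the lowest B6 mouse, -0.043 in the median one and 0.040 in the highest, and -0.013, 0.056 and 0.12 in D2. Symbol-bearing probesets of the same levels ran the other way, at -0.036, 0.043 and 0.12 in B6 and at -0.13, 0.0068 and 0.076 in D2. The members' median minus theirs was -0.072 ± 0.10 (SD, n = 10) in B6 and 0.061 ± 0.083 (SD, n = 12) in D2. Within the arrays with file letter A this gap was -0.083 in B6 (8 arrays) and 0.047 in D2 (10 arrays), and within letter B -0.028 and 0.13 (2 arrays each). The strains overlapped within letter A (-0.18 to 0.073 in B6 and -0.063 to 0.20 in D2) and not within letter B (-0.10 and 0.047 against 0.063 and 0.20).

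The general level of the arrays also differed between the strains. The median over all probesets ranged from 1.41 to 1.47 in B6 and from 1.45 to 1.51 in D2. The B6 mouse with the highest median, replicate 11, also had the highest gap of its strain (0.073), and so had D2 replicate 19 (median 1.51, gap 0.20). D2 replicate 20 went the other way, with a median of 1.502 and a gap of -0.034, among the lowest of its strain. With the array median as covariate, as above, the median difference was 0.038 for the members and 0.020 for the symbol-bearing probesets of the same levels. Since the array median went with strain, array level and strain cannot be told apart in this fit.

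**Figure D3:**
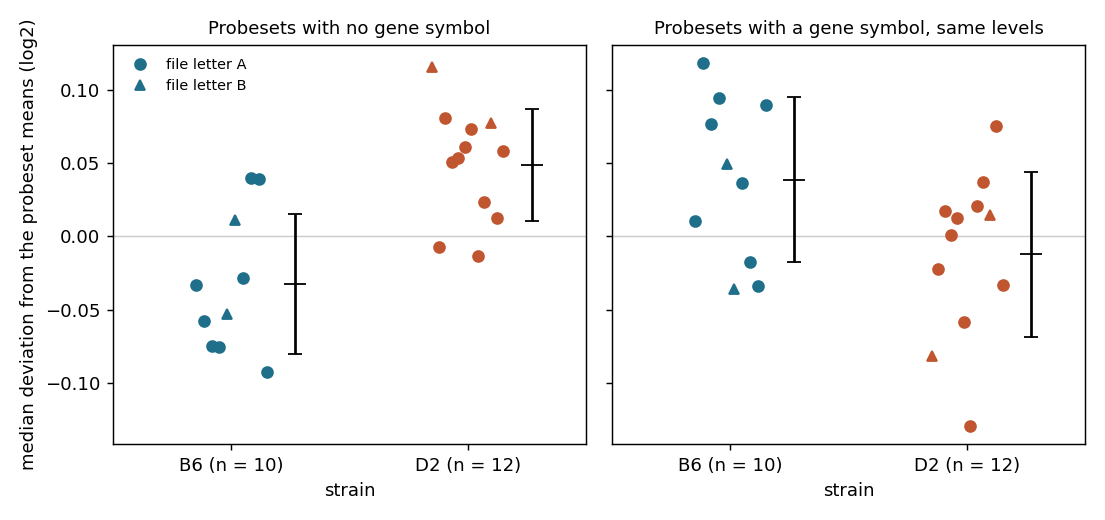
Median deviation of probesets from their own mean over the 22 arrays (log2), 1 point per mouse, for probesets with no gene symbol (left) and symbol-bearing ones of the same levels (right). Circles are arrays of file letter A, triangles those of letter B, and bars are the mean and SD per strain. The D2 mice lie mostly above 0 on the left and spread around 0 on the right, and the strains overlap in both panels.

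The 5 members with the largest falls in D2 were bright in B6 and had D2 means below 2. Probeset 5156556 was at 9.01, 9.21 and 9.45 in the lowest, median and highest B6 mouse and at 1.16, 1.48 and 2.25 in D2. Its difference was -7.65 ± 0.12 (SE, limma adjusted p = 5.1e-23). The B6 mice lay close together, and every D2 mouse lay far below every one of them.

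Probeset 4795286 was at 8.90, 9.20 and 9.51 in B6 and at 1.07, 1.41 and 2.42 in D2 (-7.62 ± 0.15). Probeset 4772078 was at 8.84, 9.21 and 9.44 in B6 and at 1.00, 1.61 and 2.42 in D2 (-7.56 ± 0.14). Probeset 5551676 was at 8.96, 9.17 and 9.31 in B6 and at 1.13, 1.43 and 2.78 in D2 (-7.55 ± 0.18). In each of these 4 the lowest D2 mouse lay below 1.44, the median of all probeset means. Background limits the low values, and a D2 variant under a probe can lower the D2 signal. The true ratios of transcript may therefore be larger or smaller than these differences show.

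The other members among the 12 lowest were 4788410 (-7.03), 4452788 (-6.84), 5279435 (-6.74), 4612841 (-6.37), 4678458 (-6.34), 4513165 (-6.15), 5448120 (-5.84) and 4825212 (-5.81). Probeset 4825212 stood apart from them by its level, at 10.0, 10.4 and 10.6 in B6 and at 3.53, 4.64 and 5.38 in D2, so that D2 mice kept a measurable signal. Probeset 5578067, which had the fifth smallest adjusted p of all members (6.8e-21), was similar, at 10.1, 10.5 and 10.6 in B6 and at 4.37, 5.0001 and 5.31 in D2 (-5.49 ± 0.12).

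At the other end, probeset 4756399 was at 0.87, 1.45 and 2.11 in the lowest, median and highest B6 mouse and at 7.74, 8.02 and 8.27 in D2, a difference of 6.56 ± 0.13 (SE, limma adjusted p = 2.3e-21). Probeset 4659429 was at 1.06, 1.95 and 2.28 in B6 and at 7.91, 8.27 and 8.69 in D2 (6.44 ± 0.14). The B6 mean was 1.4601 for the first and 1.86 for the second.

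Probeset 5438888 (5.87 ± 0.36) was less even in B6, where mice ranged from 0.30 to 4.45, and lay between 7.61 and 8.19 in D2. The 9 others were 5015673 (5.81), 5314232 (5.75), 5101024 (5.69), 5612872 (5.48), 4821602 (5.17), 5290511 (4.77), 5383022 (4.59), 4619296 (4.43) and 4349078 (4.38). Their D2 means lay between 7.77 and 8.16, and their B6 mice between 0.19 and 4.78, below every D2 mouse. The narrow range of levels in the brighter strain comes in part from the rule: with B6 at 1.44, a D2 mean of 7.97 is needed for a mean of 5 over the 22 arrays, and with D2 at 1.44, a B6 mean of 9.28.

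**Figure D4:**
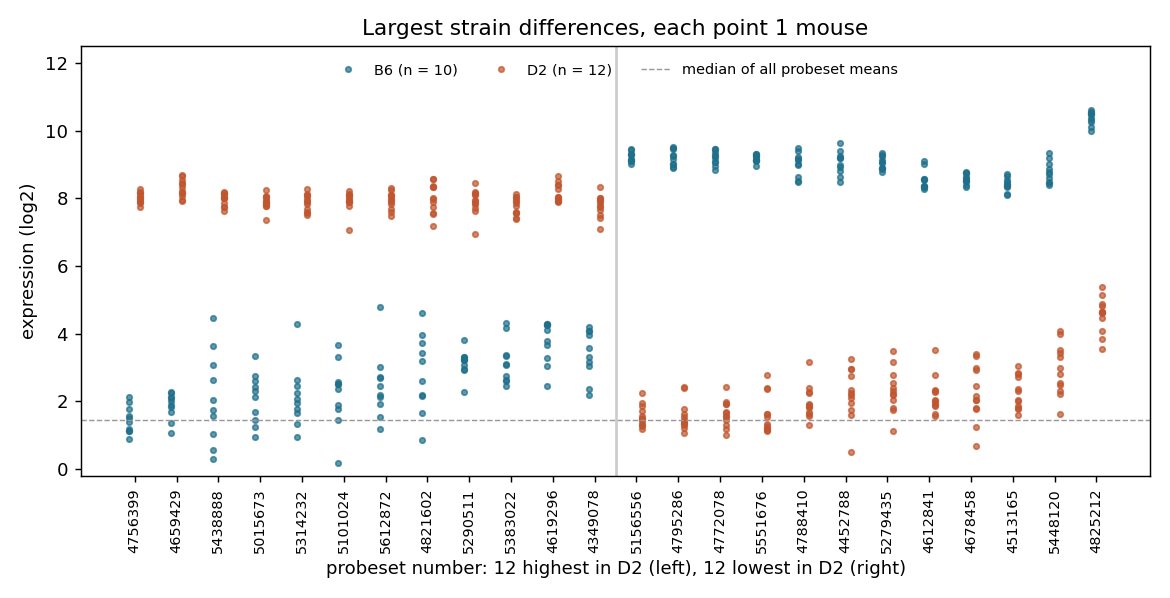
Expression (log2) of the 12 members highest and the 12 lowest in D2, 1 point per mouse, B6 and D2 side by side, with the median of all probeset means (1.44) as a dashed line. The strains do not overlap in any of the 24, as their choice required, and the 4 members lowest in D2 have D2 mice around the dashed line and B6 mice at about 9.

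Some of the 24 members varied together among the mice of the strain in which they were bright. In the 10 B6 mice, the 4 probesets lowest in D2 (5156556, 4795286, 4772078 and 5551676) correlated with each other at 0.81 to 0.92, and 4788410, 4452788 and 5279435 at 0.82 to 0.97. In the 12 D2 mice, 5438888, 5314232 and 5612872 correlated at 0.86 to 0.91. Of the 66 pairs among the 12 lowest, 10 reached 0.7 in B6 (median 0.09), and of the 66 among the 12 highest, 5 reached 0.7 in D2 (median 0.15). These values are a description of mice that share arrays and processing. Probesets 5314232 and 5612872 also correlated in B6 (0.91), where both had their highest value in replicate 2 (4.28 and 4.78).

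The genes most like the 24 changed with the way of comparing. Likeness was taken over deviations from the strain means in both strains, and these were larger in the strain with the low signal (for 5551676, an SD of 0.11 in B6 and 0.57 in D2), so that the values of that strain weigh most. The gene most like each of them, among 16016 genes and over the same deviations, had a Pearson r between 0.66 and 0.86. It was another gene for 20 of the 24 with Spearman's coefficient, for 21 with letter A arrays alone and for 14 without B6 replicate 5 and D2 replicates 21 and 22. The highest value was that of probeset 4821602 with Haus7, a subunit of the augmin complex of the mitotic spindle (r = 0.86, 0.93 within B6 and 0.75 within D2). For the lowest probeset, 5156556, it was the DNA end-joining factor gene Nhej1 (r = 0.78), and another gene under each of these alternatives. Probeset 4619296 went with the kinase gene Nek2 (r = 0.75) and 4772078 with the palmitoyltransferase gene Zdhhc21 (r = 0.74). Both were also found under Spearman's coefficient, and neither with letter A arrays alone. For probesets 5438888, 5101024 and 5612872 the sign of r differed between the strains.

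A part of the members with a difference varied together among the mice. Whether such members lie in the same transcript is not known, since positions were not used. Among the 1085 called members without overlap, 978 had no partner with a correlation of 0.9 or more over the deviations in both strains, and 89 fell into 18 groups of at least 3 linked in this way. These groups, and the probesets and genes named with them, were chosen after the values were seen and have no test of their own. Members with a low signal in 1 strain may be missed in this way, as the correlations within B6 above show. In all 18 the members of a group differed in the same direction, 13 groups higher and 5 lower in D2.

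The largest group held 9 probesets, among them 5430464, with mean levels between 10.8 and 10.9 and differences between -0.57 and -0.51. Its mean by mouse was 11.0, 11.1 and 11.3 in the lowest, median and highest B6 mouse and 10.3, 10.6 and 10.8 in D2. Level and difference were nearly the same in all 9. The strains did not overlap, as the choice of called members without overlap required.

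A group of 7 around 5412623 was lower in D2 by 2.30 to 3.47. Its mean by mouse was 8.90, 10.0 and 10.5 in B6 and 5.87, 7.10 and 8.30 in D2. A second group of 7, around 5142966, was higher in D2 by 1.89 to 2.43, with 5.06, 5.53 and 6.78 in B6 and 7.35, 8.05 and 8.32 in D2. The 3 groups of 6, around 4927273, 5288673 and 5419295, were higher in D2 by 1.22 to 1.41, by 0.98 to 1.06 and by 0.94 to 1.05. All members of these groups were called singly, as their choice required. The highest limma adjusted p was 0.00061 in the group of 9 and 3.3e-05 over the groups of 6 and 7.

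In 2 groups of 5, around 5119092 (higher by 1.55 to 1.86) and 5150266 (higher by 1.54 to 1.66), the gene most like the group mean was the phosphatidylserine decarboxylase pseudogene Pisd-ps3 (r = 0.84 and 0.89 over the deviations of 22 mice). Pisd-ps3 itself was at 6.44 in B6 and 8.47 in D2 (limma adjusted p = 7.2e-13). For the group of 9 the most alike gene was Cfhr3 (r = 0.76), followed by Smc5 (0.73) and the mitochondrially encoded COX1 (0.70), of which none was called (adjusted p = 0.66, 0.34 and 0.76). Over the groups of 5 or more other than those with Pisd-ps3, the most alike of 16016 genes was not called in any. Its r ranged from 0.67 (Wdr72, group around 4927273) to 0.84 (9030622O22Rik, group around 5419295), so such values also arose with genes that were not called.

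Within a strain, where mice are genetically alike, the members varied somewhat more than symbol-bearing probesets of the same levels. Their within-strain SD had quartiles of 0.25, 0.31 and 0.38, against 0.22, 0.28 and 0.36. An SD of 1 or more was found for 200 members (0.462%), against 0.038% of symbol-bearing probesets of the same levels. Of these 200, 0 were called between the strains by limma and 9 had an unadjusted p under 0.05. A large within-strain SD widens the error of the strain difference, so this choice itself made calls unlikely. The called share of other probesets with such SDs was not taken. Without B6 replicate 5 and D2 replicates 21 and 22, the number was 129. The first principal component of the members' deviations held 23.0% of their variance. It set the 4 arrays with file letter B (scores from 0.15 to 0.37) above the 18 with letter A (-0.28 to 0.12).

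The 8 most variable members moved as one. Probeset 4818343 was at 0.16, 6.96 and 8.30 in the lowest, median and highest B6 mouse and at 1.07, 7.26 and 8.43 in D2 (within-strain SD 2.47). Low values were those of B6 replicate 5 (0.16) and of D2 replicates 22 (1.07) and 21 (1.18), while the next lowest mouse, D2 replicate 14, was at 5.33. Probesets 5036390, 5043950, 4869638, 4588065, 5502384, 4907880 and 4332801 had the same 3 mice lowest and SDs between 2.19 and 2.40. Over the 28 pairs of these 8 probesets the deviations correlated at 0.98 to 0.99. D2 replicate 22 and B6 replicate 5 have file letter B and D2 replicate 21 letter A. The other 2 letter B arrays, B6 replicate 6 and D2 replicate 13, were at 6.41 and 6.43. Without the 3 low mice the SDs of the 8 fell to between 0.92 and 1.23.

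For all 8 the most alike of 16016 genes was AY036118, listed as a long non-coding RNA in the RefSeq gene table (GRCm38.p6), where it overlaps Rn18s-rs5, a pseudogene related to 18S ribosomal RNA. The correlations lay between 0.96 and 0.98 over all mice, and between 0.92 and 0.99 without the 3 low mice. The same gene was found for all 8 with Spearman's coefficient and with letter A arrays alone. AY036118, over 9 probesets, was at 3.40, 7.15 and 8.47 in the lowest, median and highest B6 mouse and at 1.74, 7.36 and 8.35 in D2, with the same 3 mice lowest, and was not called between the strains (-0.34, limma adjusted p = 0.79). Per the labels the RNA was depleted of ribosomal RNA before labelling. The part of ribosomal RNA in this pattern was not tested.

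**Figure D5:**
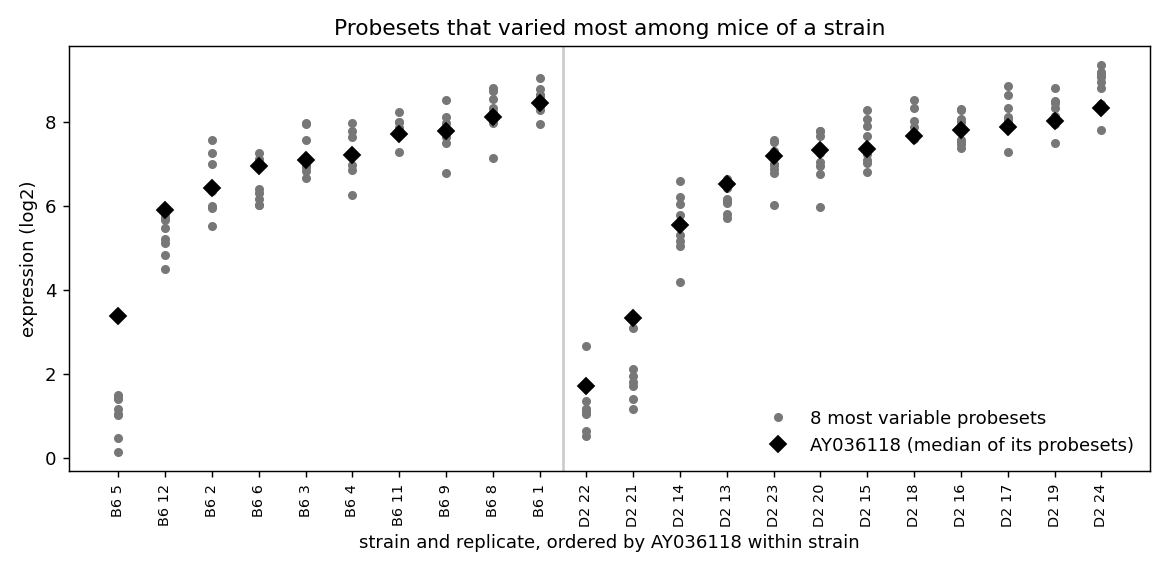
Expression (log2) of the 8 most variable members (grey points) and of AY036118 (black diamonds, median of its 9 probesets) in each of the 22 mice, ordered by AY036118 within strain. B6 replicate 5 and D2 replicates 22 and 21 are low in all of them, and the other mice of both strains lie between 4.2 and 9.4.

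The pattern reached beyond these 8. Over all members, 91 correlated with AY036118 at 0.9 or more and 826 (1.91%) at 0.7 or more, against 0.279% of symbol-bearing probesets of the same levels at 0.7 or more. Of the 200 variable members, 71 did so at 0.9 or more and 106 at 0.7 or more. Clustering of the 200 by correlation (average linkage, cut at 0.7) gave 18 groups, the 4 largest of which held 181 members. These groups and the genes named beside them were chosen after the values were seen. The largest, of 107, had the 3 mice named above lowest (3.40, 3.67 and 4.33 on average over the 107) and followed AY036118 (r = 0.98). Its mean was 6.63 ± 1.28 (SD, n = 10) in B6 and 6.60 ± 1.48 (SD, n = 12) in D2.

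The other groups had other mice at the bottom. A group of 39 was lowest in D2 replicates 13 (4.46) and 24 (4.84) and B6 replicate 11 (5.13) and highest in D2 replicate 18 (8.29). D2 replicate 24, here among the lowest, was the highest in the group of 107 (8.37). A group of 25 was lowest in D2 replicate 13 (3.08) and highest in D2 replicate 17 (7.30), and a group of 10 lowest in D2 replicate 13 (4.35) and highest in D2 replicate 18 (8.66). The genes most like the means of these groups were Orly (r = 0.83), Samd4b, an RNA-binding repressor of translation (r = 0.87), and the 2-oxoglutarate dehydrogenase gene Ogdh (r = 0.83). Pituitary hormone genes, which varied strongly among the mice, were not among the partners. The growth hormone gene Gh ranged from 1.499 to 8.45 in B6 and from 1.84 to 10.3 in D2, and of the 200 variable members 0 correlated at 0.7 or more with Gh or with Pomc. Over all members, 12 did so with Gh and 5 with Pomc.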

How the data were processed

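Each array gave 1 log2 value per probeset, which the authors deposited after RMA. The submitters' processing notes name affy 1.12.2 with R 2.6.0. RMA equalizes arrays by quantiles, so a shift of some probesets is relative to the others. Its options and the probeset definition are not given in the sources used here. Per the labels, 24 arrays were run, and 2 read on a different scanner are not among the 22. Of 1201338 rows, 10932 were empty and left out. The platform annotation gave 1 symbol for 309786 probesets with values, several for 6308 and none for 874312. An array has no read depth, and the number of arrays limits the precision.

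The strains were compared with limma 3.58.1 under R 4.3.3 (lmFit, then eBayes). P-values were adjusted by Benjamini-Hochberg over the 595203 probesets whose mean reached the median of all probeset means (1.44), and calls are those with an adjusted p below 0.05. They measure the spread between mice. Symbol-bearing probesets were weighted to the members' levels in classes of 0.25, and 31 members at levels with no such probeset stayed outside. Gene values are medians over at least 3 kept probesets with 1 symbol. Likeness is Pearson's r over deviations from the strain means, as a description. File letters are those of the array file names in the labels. Named are the 12 highest and 12 lowest in D2 among called members without overlap, the 10 brightest, the 8 most variable, the 5 with the smallest adjusted p and 3 on each side of the limit. The members, lists and rules were chosen with earlier results of these data known. The test was checked on simulated data over 595203 probesets with independent noise. Of 50 changes each, 0% of 0.25, 12% of 0.5, 78% of 1 and 98% of 2 were recovered. Only 99 probesets were called there, against 23265 in the data. The adjustment was therefore stricter, and these rates do not give the sensitivity of the comparison of strains. Figures were drawn with matplotlib 3.10.9.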

Additional observations from a re-analysis of the deposited data

Results flagged for a closer look

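Among the 43 named members tested in B6 (10 mice; D2, with 12, was not tested), the mouse at one end stood apart from the others, by Dixon's criterion at 95%, in 10. Chance flags about 1 in 20 groups, a share that does not apply to the 8 most variable members: they were chosen for their within-strain SD, which an outlying mouse raises. In these 8 it was B6 replicate 5, at 0.16 in probeset 4818343 (next mouse 5.49), 0.49 in 5036390 (4.84), 1.19 in 5043950 (5.14), 1.44 in 4869638 (5.74), 1.04 in 4588065 (5.23), 1.52 in 5502384 (5.69), 1.41 in 4907880 (5.83) and 1.05 in 4332801 (4.50). These 8 move together and count as a single observation. In 2 members that were higher in D2 it was B6 replicate 2, at 4.28 in probeset 5314232 (next mouse 2.61) and 4.78 in 5612872 (3.00).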

How the results depend on the processing

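The direction of the 25 members with the largest or surest differences was the same under all 10 alternatives run, and all 25 were called under 9 of them. On the 4 letter B arrays alone probeset 5383022 was at 4.43 without a call (adjusted p = 0.13). The number of called members was 1843 with the array median as covariate, 61 on letter B arrays alone, 1930 with a limit of 6 and 5468 with a limit of 4, where members are fewer or more by construction. Of the 3325 called, 1548 were called in the same direction with the covariate, 2669 without D2 replicates 13, 14 and 19 and 2520 without B6 replicate 5 and D2 replicates 21 and 22. This last alternative was added after the data were seen. The share of member calls lower in D2, 39.4%, was 42.0% with centred arrays, 35.8% with the covariate, 37.1% with the file letter as block, 42.3% on letter A and 77.0% on letter B arrays alone, 41.2% without filter, 35.4% with a stricter filter (75th percentile), 34.0% with an intensity trend, 41.5% without D2 replicates 13, 14 and 19, 42.8% without the 3 low mice, 37.7% with a limit of 6 and 41.5% with a limit of 4. Calls higher and lower thus changed places only on letter B arrays, where 14 were higher and 47 lower. The excess of the members' called percent over that of symbol-bearing probesets of the same levels, 3.57 points, was 3.19 with centred arrays, 2.51 with the covariate, 3.90 with the letter as block, 3.30 on letter A and 0.12 on letter B arrays, 4.36 with the stricter filter, 4.96 with the trend, 3.13 without the 3 low mice, 5.60 and 1.83 with limits of 6 and 4 and 3.24 with both strain means at 5 or above. The median difference of members was 0.038 with the covariate and 0.12 on letter B arrays alone. Their excess in within-strain SD, 0.024, was 0.030 on letter A arrays, 0.026 without the 3 low mice, 0.033 and 0.012 with limits of 6 and 4 and 0.025 with both strain means at 5 or above. The causes were not tested. The correlations of the named members within a strain, and of the brightest without D2 replicate 18, were likewise added after the data were seen. No paired analysis was possible because the mice of the strains share no replicate numbers.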
